A study of Mus musculus with 15 samples.

Results

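The 38 genes described here repair broken DNA or signal its presence, and they were followed in single mouse oocytes at metaphase II (MII) and at the germinal vesicle stage (GV). The list was given by gene symbol and covers homologous recombination, the Fanconi anaemia pathway, mismatch repair, end joining and the damage checkpoint. Of its 38 members, 37 had counts in at least 1 oocyte, against 28785 gene IDs with counts in all, and Fancf is not analysed here. A gene was called measured when the mean of its levels in the 2 stages reached 5 CPM, the count of a gene as a share of its library scaled to 1000000, which 31 members and 9480 genes did. Rad51b, Atrip, Chek2, Fancl, Mlh3 and Pms2 had counts but lay under that filter.

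Each library was made from a single oocyte by MATQ-seq, a method that amplifies the total RNA of a cell. The 6 MII oocytes were ovulated in mice that had received pregnant mare serum gonadotropin (7 IU) and then chorionic gonadotropin (7 IU) with about 48 h between the injections. Another 20 h later their cumulus masses were removed from the fallopian tubes and dispersed with hyaluronidase at 300 IU/mL. The 9 GV oocytes were fully grown and came from mice given the gonadotropin alone and killed 44 h later. All donors were females of about 6 to 8 weeks, and the labels name neither a strain nor which mouse gave which oocyte. Each stage was therefore treated as 1 sample, no test between stages was made, and differences are described by their size beside the spread between oocytes.

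A double-strand break is first bound by the MRN complex, which contains RAD50 and NBN and activates the kinase ATM. After the ends are resected, BRCA1 with BARD1, PALB2 and BRCA2 starts repair by homologous recombination, in which the ends copy an intact template, while 53BP1 limits resection and favours ligation of the ends by Ku, DNA-PKcs and ligase IV. The Fanconi proteins handle crosslinks between the strands. In oocytes of the ovarian reserve the p63 protein acts as a guardian that eliminates cells with unrepaired breaks. Fully grown GV oocytes have stopped transcribing, so the messages of an MII oocyte are largely those stored before meiosis resumed.

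Total counts per library ran from 808641 to 2348281 in MII oocytes and from 3687610 to 7103063 in GV oocytes. A single feature without a gene symbol took 15.7% to 61.2% of the counts in MII oocytes, 3.43% to 11.2% in GV7 to GV9 and none in GV1 to GV6, and it was left out of all totals used for CPM. A count of 0 in a library allows a level of up to 2.35 to 5.60 CPM in MII oocytes and up to 0.422 to 0.916 CPM in GV oocytes, for counting error only. The column headers of the files begin alike in GV1 to GV6, differently in GV7 to GV9 and with yet another form in all MII files, so stage and kind of file cannot be told apart. All 11 oocyte markers had counts at both stages, with summed levels of 7458 to 16763 CPM in MII oocytes and 7081 to 28257 CPM in GV oocytes. Cumulus and granulosa markers were detected for 8 of 16 in MII oocytes and 15 of 16 in GV oocytes. Their sums were 29.5 to 126 CPM and 145 to 564 CPM. Inha, Inhba, Amh, Foxl2, Ptx3, Gja1, Ccnd2 and Hsd17b1 were at 0 in every MII oocyte. Those with counts in MII were Fshr, Cyp19a1, Has2, Ptgs2, Tnfaip6, Nr5a2, Kitl and Npr2. The part of these markers in the results below was not tested. Because CPM are shares of the counts in a library, less RNA of a gene and more RNA of all others cannot be told apart.

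Per kilobase of transcript, the median member stood near the median of all genes, while single members lay from the 0.535th percentile of GV levels for Prkdc to the 89.0th for Chek1. The median of the 31 measured members was 9.57 CPM per kb in MII oocytes and 10.1 CPM per kb in GV oocytes, beside 9.94 and 11.8 CPM per kb over 8777 measured genes with a coding transcript. The checkpoint kinase Chek1 stood first of the members in GV oocytes, at 37.6 CPM per kb in MII and 68.8 CPM per kb in GV. The Fanconi core subunit Fance stood first in MII oocytes, at 50.2 CPM per kb in MII and 25.4 CPM per kb in GV. Xrcc3, which acts in recombination in a complex with RAD51C, was second at both stages, at 46.9 CPM per kb in MII and 47.7 CPM per kb in GV. At the other end, 4 members kept the same order at both stages, namely Xrcc2, Atr, Atm and Prkdc. The large kinase genes were thus the lowest per kilobase, with Atm at 0.740 CPM per kb in MII and 1.31 CPM per kb in GV, and Prkdc at 0.573 CPM per kb in MII and 0.790 CPM per kb in GV. Of the 30 steps between neighbours in the order, 0 exceeded the spread between oocytes at either stage, the largest in GV oocytes being 0.87 on the log2 scale between Xrcc3 and Rad50. The length used was that of 1 annotated coding transcript per gene. For some members this is well under all exonic bases, at 2025 against 3192 bases for Fance and 8102 against 23629 for Atr. Orders per kilobase, here and below, hold for that length only and were not taken with exonic lengths.

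**Figure D1:**
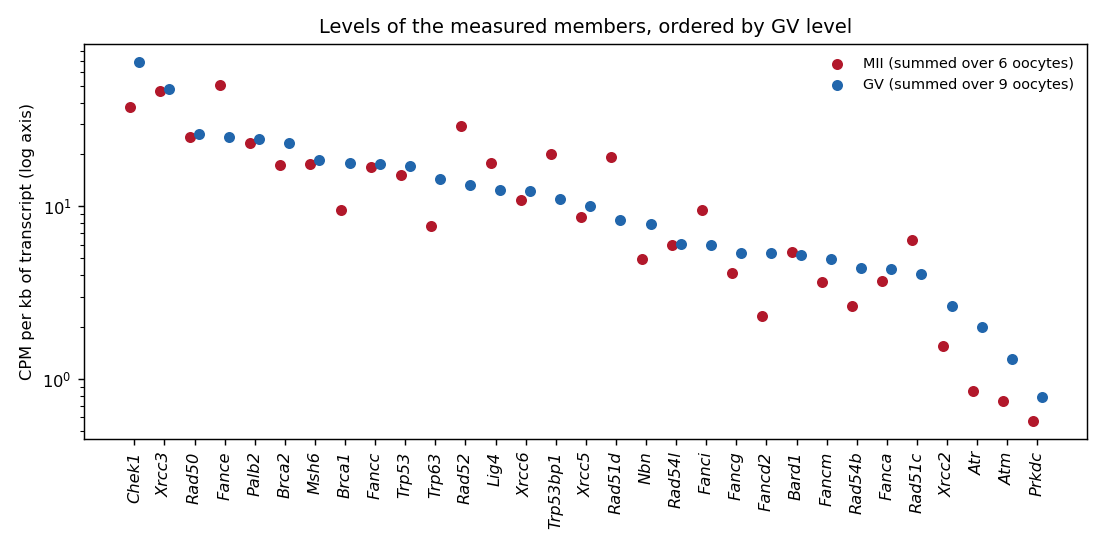
Level of the 31 measured members in CPM per kb of transcript on a log axis, from counts summed over the 6 MII and the 9 GV oocytes. Chek1 leads in GV oocytes at 68.8 CPM per kb, Fance leads in MII oocytes at 50.2 CPM per kb, and Prkdc is lowest at both stages.

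The stage comparison asks whether the stored messages of the repair genes took a different share of the library after maturation. Ratios are log2 MII over GV from counts summed over each stage, set against the median measured gene, and a gene was called when it lay at least 2-fold from that gene. The median gene itself stood at -0.24 in CPM without the unnamed feature, and at -0.91 with all counts in the totals. The median member had a ratio of 0.06. At least 2-fold higher in MII were 4 of 31 measured members, or 12.9%, against 11.5% of all measured genes, and 0 were at least 2-fold lower, against 12.5% of all measured genes. The 4 were Rad51d at 1.46, Rad52 at 1.37, Fance at 1.22 and Trp53bp1 at 1.12. The share of members called higher was close to that of all genes, and 27 of 31 members lay within 2-fold of the median gene, against 76% of all genes.

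The split of calls depends on the scale. In CPM without the unnamed feature, 2 members were 2-fold higher and 2 were 2-fold lower, beside 7.33% and 18.03% of all genes. Fance at 0.98 and Trp53bp1 at 0.88 were then within 2-fold. With all counts in the totals, 0 members were higher and 13 were lower, beside 2.10% and 45.2% of all genes. The ratios of Rad51d, Rad52, Fance and Trp53bp1 were above 0 on each of these scales, the lowest being 0.21 for Trp53bp1 with all counts in the totals. A ratio between 0 and 0.91 turns negative on that last scale, and this holds for all such values below.

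Ratios larger than the spread between oocytes, which combines the SDs of both stages, were found for 2 of 31 members above 0, Trp53bp1 and Rad51d, and for 0 below 0. The background for these was 8.08% and 7.28% of all measured genes. The oocytes of the stages did not overlap for 1 member only, Trp53bp1, which was higher in MII. Of all measured genes, 1.66% were higher and 0.728% were lower in MII without overlap.

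**Figure D2:**
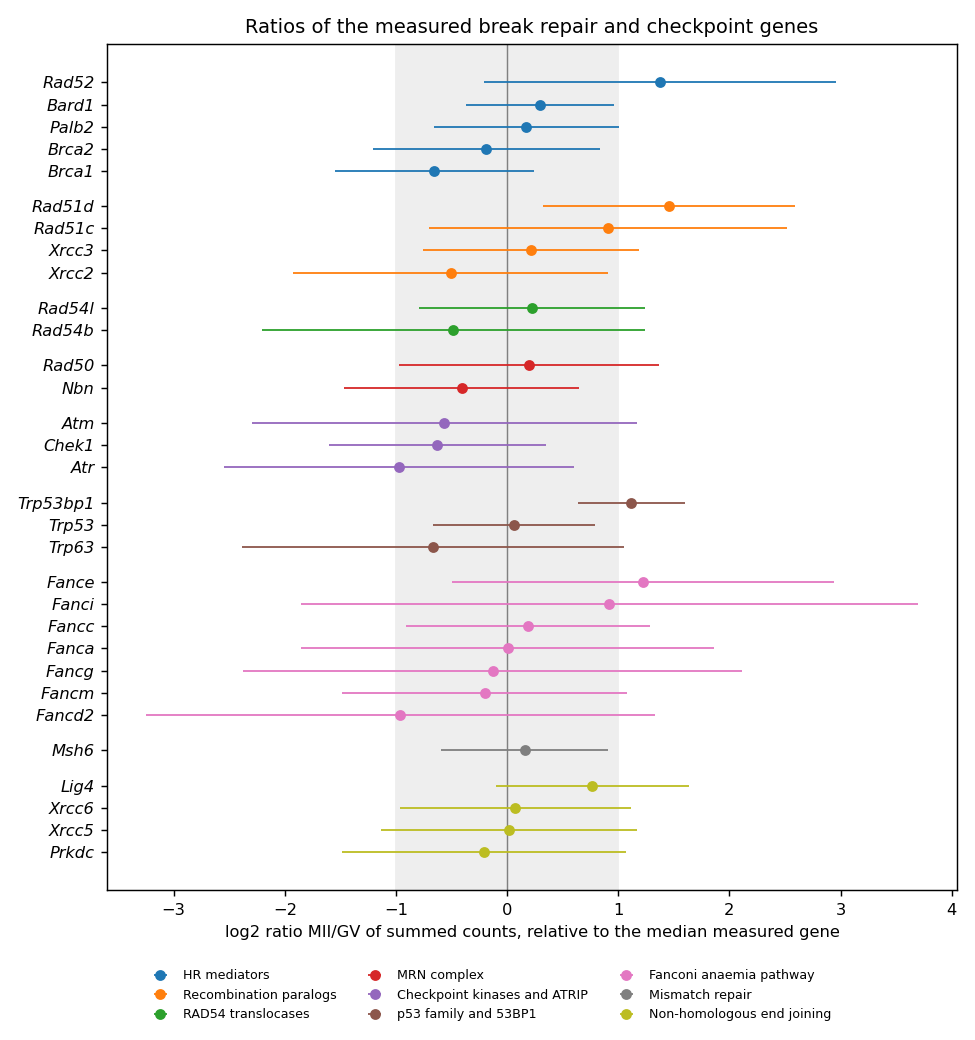
Log2 ratio of MII over GV relative to the median measured gene for the 31 measured members, grouped by role, with bars for the spread between oocytes. The shaded band marks values within 2-fold, and only Rad51d, Rad52, Fance and Trp53bp1 lie outside it.

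Trp53bp1 encodes 53BP1, the chromatin-bound protein that protects broken ends from resection. Its level was 159 CPM at the lowest, 193 CPM at the median and 233 CPM at the highest in MII oocytes, against 61.4 CPM, 116 CPM and 151 CPM in GV oocytes. Every MII oocyte was thus above every GV oocyte. The summed counts gave 194 CPM in MII (95% counting interval 183 to 206, 1154 counts) and 106 CPM in GV (103 to 109, 4561 counts). Its ratio of 1.12, with a counting interval of 1.02 to 1.21, stands beside a spread of 0.48, the smallest of the measured members. Leaving out any 1 oocyte gave 1.004 to 1.197, and set against GV1 to GV6 alone the ratio was 1.05, with 1.17 for GV7 to GV9 alone. Its exons share 2130 bases with Tubgcp4 on the other strand, which had 23 counts in MII and 390 in GV. How reads of the shared bases were counted is not known, and their part in the ratio was not tested.

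The genes of the transcription factors p53 and p63 differed between stages by less than the spread between their oocytes. Trp63 ranged over 3.73, 33.6 and 69.1 CPM in MII oocytes (lowest, median, highest) and over 26.2, 64.3 and 114 CPM in GV oocytes. The stages overlapped, with the MII median under most GV oocytes, and the ratio of -0.67 stands beside a spread of 1.72. Trp53 was even between stages at a ratio of 0.06, with 17.9, 20.9 and 47.2 CPM in MII oocytes and 14.4, 32.9 and 44.9 CPM in GV oocytes.

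Among the mediators of homologous recombination, only Rad52 passed 2-fold. It had 15.5, 38.3 and 143 CPM in MII oocytes and 1.86, 24.1 and 30.7 CPM in GV oocytes. MII5 held the highest value and MII6 the next, while GV6 stood far below the other GV oocytes. Its ratio of 1.37 (counting interval 1.17 to 1.57) was under its spread of 1.58, and without MII5 it was 0.82, within 2-fold.

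Brca2, a tumour suppressor that acts on resected single-stranded DNA, was the largest member of this group in counts and lay near the median gene. It had 69.2, 177 and 377 CPM in MII oocytes and 139, 241 and 408 CPM in GV oocytes, at a ratio of -0.19. Palb2, the bridge between BRCA1 and BRCA2 and the highest of the group per kilobase in GV oocytes, had 49.9, 83.4 and 147 CPM in MII oocytes and 48.3, 102 and 169 CPM in GV oocytes, at 0.17. Brca1, the ubiquitin ligase that promotes resection, had the lowest ratio of the group, -0.65 with a spread of 0.89. It had 17.9, 67.4 and 108 CPM in MII oocytes and 76.2, 119.7 and 170.5 CPM in GV oocytes, and the stages overlapped. Its ligase partner Bard1 had a ratio of 0.30 from 23.0, 31.4 and 36.0 CPM in MII oocytes and 14.0, 34.7 and 43.9 CPM in GV oocytes.

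The paralogs Rad51c, Rad51d, Xrcc2 and Xrcc3, whose products work in recombination as small complexes, had a median ratio of 0.56 over the 4 measured. Rad51d stood highest, with 28.5, 43.5 and 149 CPM in MII oocytes against 7.04, 28.9 and 64.1 CPM in GV oocytes. A single oocyte, MII2, held the 149 CPM, and of the others only MII3, at 66.5 CPM, lay above the GV range. The ratio of 1.46 (counting interval 1.29 to 1.62) exceeds the spread of 1.13, and it was 0.86 without MII2 and 0.82 against GV7 to GV9 alone. Xrcc3, the most abundant paralog per kilobase, was even at 0.22, with 61.5, 109.7 and 140.1 CPM in MII oocytes and 43.4, 87.5 and 201 CPM in GV oocytes. The 2 kinds of GV files gave unlike answers for it, -0.04 when MII was set against GV1 to GV6 and 1.13 for GV7 to GV9. Rad51c had a ratio of 0.90 with a spread of 1.61. Xrcc2, the scarcest of the 4 measured paralogs per kilobase, had a ratio of -0.51. Its levels were 0.783, 4.22 and 13.2 CPM in MII oocytes and 2.08, 7.40 and 22.0 CPM in GV oocytes. Rad51b was under the filter, at 3.70 CPM in MII and 4.83 CPM in GV from 22 and 208 counts.

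The RAD54 translocases, motor proteins that move along DNA during strand exchange, were each within their spread of the median gene. Rad54l was at 0.22, with 3.73, 14.4 and 28.2 CPM in MII oocytes and 11.9, 16.8 and 27.2 CPM in GV oocytes. Rad54b was at -0.48, with 0, 7.45 and 22.4 CPM in MII oocytes and 3.92, 12.7 and 24.8 CPM in GV oocytes. Both overlapped between stages and both share exonic bases with another gene, 1184 with Lrrc41 on the other strand for Rad54l and 2068 with Fsbp on the same strand for Rad54b. Lrrc41 had 741 counts in MII and 5003 in GV, more than the 99 in MII and 729 in GV of Rad54l, and Fsbp had 1 in MII and 80 in GV.

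In the MRN complex, Rad50, the ATPase that tethers broken ends, was the more abundant and was even between stages. Its oocytes had 26.9, 146 and 195 CPM at MII and 78.3, 129 and 206 CPM at GV, at a ratio of 0.19. Nbn, the adaptor that recruits ATM, was at -0.41 with 5.49, 15.9 and 20.5 CPM in MII oocytes and 5.78, 21.7 and 37.3 CPM in GV oocytes. Both differences were smaller than their spreads of 1.17 and 1.06.

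The 3 measured checkpoint kinases all lay below the median gene, at a median ratio of -0.63, and none passed 2-fold. Atr, which responds to single-stranded DNA, was closest to it at -0.97 (counting interval -1.48 to -0.54) with a spread of 1.58. It had 0, 5.69 and 14.7 CPM in MII oocytes and 4.92, 17.9 and 23.7 CPM in GV oocytes, from 41 counts in MII and 698 in GV. Without MII3 it was -1.41, and without both MII5 and MII6 it was -0.56.

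Chek1, the kinase downstream of ATR, had 41.0, 141 and 222 CPM in MII oocytes and 143, 168 and 582 CPM in GV oocytes. GV2 alone held the 582 CPM, and the ratio of -0.63 was -0.38 without it and -0.08 against GV7 to GV9. Atm, the kinase that answers double-strand breaks, had 0, 3.04 and 21.1 CPM in MII oocytes and 3.06, 13.2 and 20.6 CPM in GV oocytes. MII2 was the highest and the other MII oocytes had 7.77 CPM or less, and the ratio of -0.57 was -1.61 without MII2, which is more than 2-fold lower. Against GV7 to GV9 alone the ratio of Atm was -0.01.

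The Fanconi genes had a median ratio of 0.00 over 7 measured members, which ran from -0.96 for Fancd2 to 1.22 for Fance. Fance links the core complex to its substrate. It had 26.7, 99.8 and 282 CPM in MII oocytes and 7.01, 34.7 and 111 CPM in GV oocytes. MII5 was the highest, MII1 also lay above the GV oocytes, and the other 4 MII oocytes were within the GV range. The ratio of 1.22 (counting interval 1.09 to 1.35) was under the spread of 1.72, and it was 0.75 without MII5.

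Fancd2 and Fanci encode the pair that the core complex ubiquitinates, and they had ratios of opposite sign from summed counts. Fancd2 had 0, 11.4 and 24.3 CPM in MII oocytes and 6.80, 29.4 and 50.1 CPM in GV oocytes, at -0.96 with a spread of 2.29. It was at 0 in MII5 and MII6, and relative to GV1 to GV6 it stood at -0.69, and relative to GV7 to GV9 at -1.66. Fanci had 0, 27.2 and 220.1 CPM in MII oocytes and 15.0, 24.6 and 57.0 CPM in GV oocytes. The 220.1 CPM were those of MII1, and the ratio of 0.92 was 0.22 without it and -0.31 from the means of relative levels over oocytes.

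The other core subunits and the translocase Fancm stayed nearer to the median gene. Fanca had a ratio of 0.00, Fancc 0.19, Fancg -0.13 and Fancm -0.20, with spreads of 1.10 to 2.24. Fancc and Fancg depended on the kind of GV file, at -0.09 and -0.45 relative to GV1 to GV6, and 1.26 and 1.33 relative to GV7 to GV9. Fancl, the ubiquitin ligase of the complex, was under the filter with 15 counts in MII and 90 in GV.

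In mismatch repair only Msh6, which recognises mispaired bases, was measured. It was even between stages, with 48.7, 65.8 and 149 CPM in MII oocytes and 38.7, 67.3 and 123 CPM in GV oocytes, at a ratio of 0.16.

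The end-joining genes had a median ratio of 0.05. Lig4, the ligase that seals the ends, was highest of the 4 in MII oocytes relative to GV oocytes, with 52.5, 85.1 and 118 CPM in MII and 18.7, 58.6 and 113 CPM in GV. The stages overlapped, and the ratio of 0.77 (counting interval 0.63 to 0.90, spread 0.87) was 0.54 relative to GV1 to GV6, and 1.5 relative to GV7 to GV9. The Ku subunits Xrcc5 and Xrcc6 were even in the summed counts, at 0.02 and 0.07. Xrcc5 was at -0.52 without both MII5 and MII6, which held its highest MII levels, 44.8 and 35.1 CPM. Xrcc6 ranged over 11.0, 13.1 and 70.2 CPM in MII oocytes and 13.3, 27.6 and 32.0 CPM in GV oocytes, and MII6 alone held its highest value, without which the ratio was -0.58. Prkdc, the catalytic subunit of DNA-PK, had 2.20, 7.11 and 11.0 CPM in MII oocytes and 1.71, 9.98 and 20.4 CPM in GV oocytes, at -0.21. Relative to GV1 to GV6 it was 0.28, and relative to GV7 to GV9 it was -1.20.

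The GV libraries were also set apart by their kind of file, since the kind could move the members as much as the stage. In GV7 to GV9 relative to GV1 to GV6, 32 members were measured, of which 2 were at least 2-fold higher, against 16.4% of 9892 measured genes, and 3 at least 2-fold lower, against 17.8%. The higher ones were Pms2 and Prkdc, and the lower ones Xrcc3, Fancc and Fancg. MII oocytes relative to GV1 to GV6 had the same 4 members higher as the full comparison, against 11.7% of all genes, and 0 lower, against 13.4%. Relative to GV7 to GV9, 7 members were higher, against 19.8% of all genes, and 3 were lower, against 19.6%. Rad52, Fance and Trp53bp1 were among those higher in both, and Rad51d was not, while Atr, Fancd2 and Prkdc were the 3 lower ones. Both comparisons use the same MII oocytes. Of the 31 measured members, leaving out 1 oocyte moved 4 by more than 1.5-fold, and restricting the GV oocytes to 1 kind of file moved 7.

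**Figure D3:**
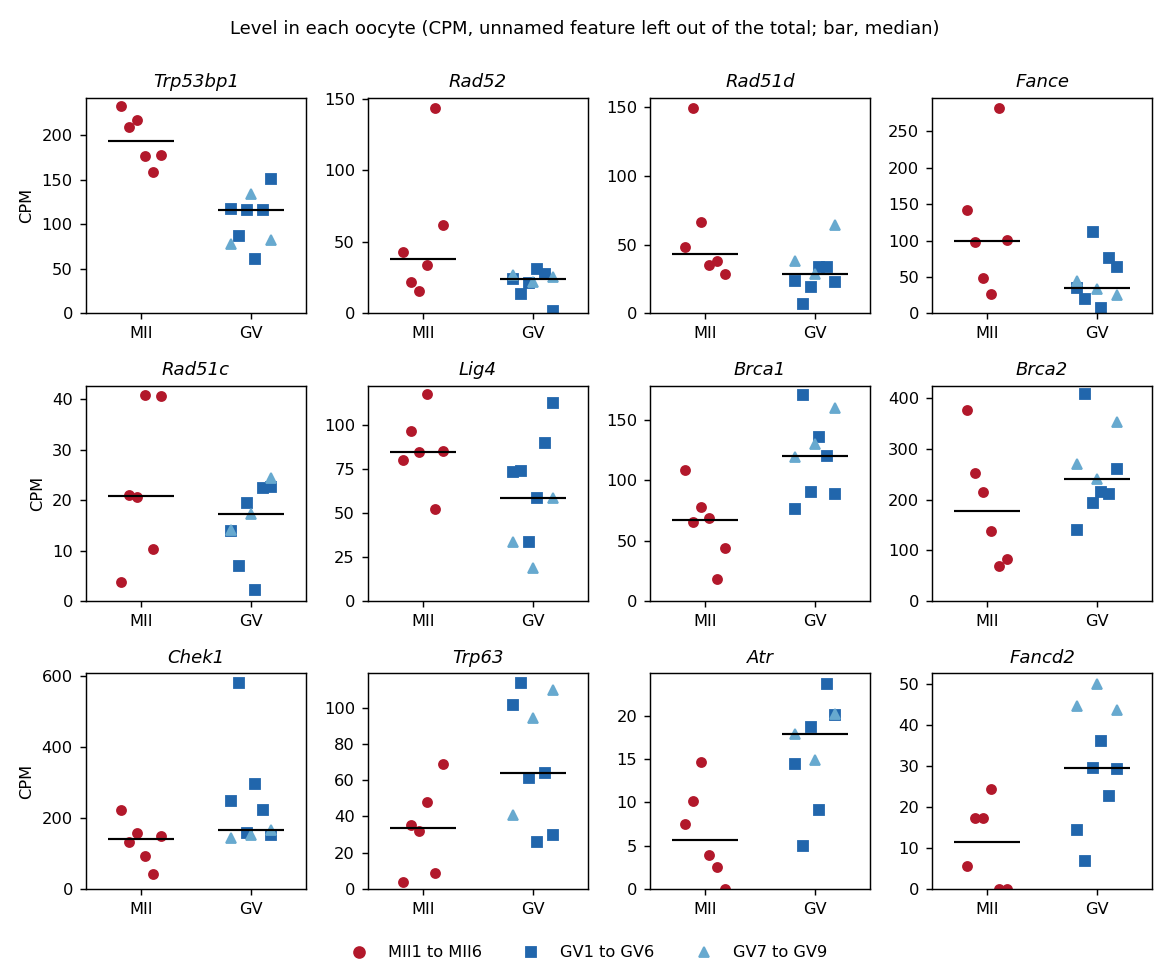
CPM of 12 members in each oocyte, MII left of GV, with a bar at the median of each stage and each vertical axis starting at 0. For Trp53bp1 every MII oocyte (159 to 233 CPM) lies above every GV oocyte (61.4 to 151 CPM), and in the other 11 panels the stages overlap.

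Of the 6 members under the filter, 3 were almost without counts in MII oocytes, namely Atrip, Mlh3 and Pms2. With no filter beyond 10 counts, these were the 3 of 37 members at least 2-fold lower in MII. Of all 19354 genes under that setting, 28.1% were at least 2-fold lower. Atrip, the partner through which ATR finds its substrate DNA, had 2 counts in MII and 152 in GV. That is 0.337 CPM in MII and 3.53 CPM in GV, a GV-to-MII ratio of 10.5 (counting interval 2.85 to 87.4). The GV-to-MII ratios given here are of plain CPM, while the log2 ratios are relative to the median gene. It had a count in 2 of 6 MII oocytes and 6 of 9 GV oocytes, and it was at 0 in GV1 to GV3. Its exons share 1147 bases with Trex1 on the same strand. Mlh3, an endonuclease subunit needed for meiotic crossovers, had 3 counts in MII, all in MII4, and 212 in GV, a GV-to-MII ratio of 9.75 (3.29 to 47.7). Of those GV counts 192 lay in GV1 to GV6 and 20 in GV7 to GV9, and the log2 MII over GV ratio was -3.14 relative to GV1 to GV6 and -1.499 relative to GV7 to GV9. Pms2, a mismatch repair endonuclease subunit, had 6 counts in MII and 174 in GV, a GV-to-MII ratio of 4.0 (1.80 to 11.1). MII1 held 5 of its MII counts, and the log2 MII over GV ratio of -1.65 was -3.61 without MII1, -1.07 relative to GV1 to GV6 and -2.73 relative to GV7 to GV9.

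Depth differs between the stages, so these genes were also counted after every library was thinned to 536101 counts. Of the 6 MII and 9 GV oocytes, Atrip then had a count in 0 MII and 6 GV oocytes. Mlh3 had one in 0 MII and 7 GV oocytes, and Pms2 in 2 MII and 6 GV oocytes. Chek2, the kinase downstream of ATM, had 8 counts in MII, all of them in MII2, and 67 in GV. At these depths its levels of 1.35 CPM in MII (0.582 to 2.65) and 1.56 CPM in GV (1.21 to 1.98) could not be separated.

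Oocytes of 1 stage differed in how many members they detected, above all at MII. After thinning, MII oocytes had counts for 27 to 34 members with a median of 31, and GV oocytes for 33 to 37 with a median of 35. Without thinning these ranges were 27 to 35 in MII oocytes and 35 to 37 in GV oocytes. Over all genes, thinned MII oocytes had counts for 9246 to 12038 genes and thinned GV oocytes for 11803 to 14315. MII5 held the fewest members and also the fewest genes of all oocytes. It had no count for Rad54b, Atm, Atrip, Chek2, Fanca, Fancd2, Fanci, Fancl, Mlh3 and Pms2. Summed over the members, the level was 1187, 1650 and 2438 CPM in MII oocytes and 1517, 1720 and 2329 CPM in GV oocytes, and the ranges of the stages overlapped.

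**Figure D4:**
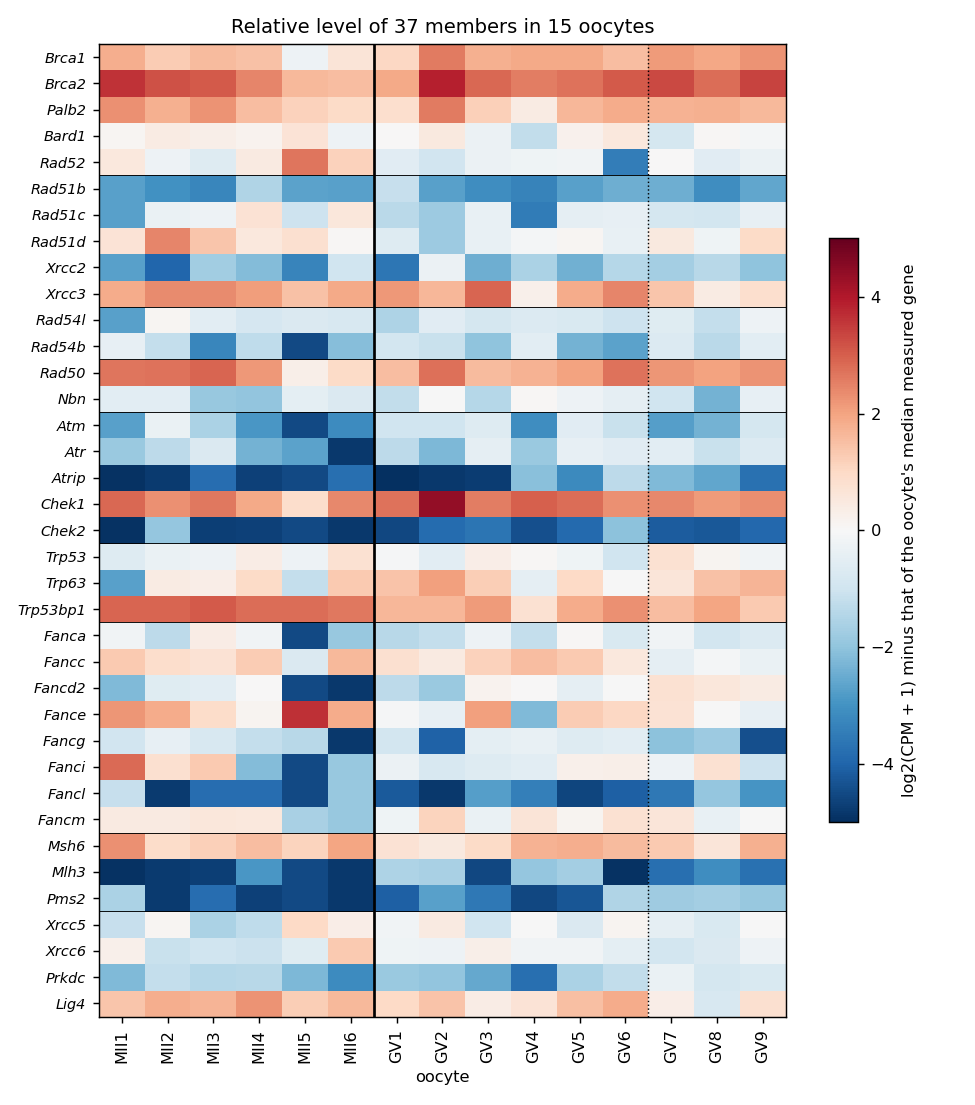
Relative level of the 37 members with counts in each oocyte, on the log2(CPM + 1) scale with the median over measured genes of that oocyte subtracted, with MII oocytes on the left and a dotted line between GV1 to GV6 and GV7 to GV9. The row of Trp53bp1 is higher in all MII oocytes, and MII5 shows the most members at 0.

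The median relative level of the measured members, taken on the log2(CPM + 1) scale after subtracting the median over all measured genes of the same oocyte, was -0.48 in MII5 and 0.24 to 0.55 in the other MII oocytes. In GV oocytes it was -0.26 to 0.11. The averages were 0.24 ± 0.36 in MII oocytes (SD, n = 6) and -0.12 ± 0.13 in GV oocytes (SD, n = 9), as a description of these oocytes.

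The levels of long and short genes differed from oocyte to oocyte, and MII5 was lowest in this measure. Genes with at least 5000 exonic bases stood 0.08 below those with under 2000 in MII5 by their median relative levels, 0.38 above them in MII6 and 1.41 to 1.81 above them in the other MII oocytes. In GV oocytes the difference was 0.35 in GV4, 0.75 in GV8 and up to 2.01 in GV2. The members' transcripts are long, with a median of 3944 bases against 3099 over 9458 genes. Across the 31 measured members, transcript length and the stage ratio had a Spearman correlation of -0.31, and across all those genes it was -0.12, where genes are not independent replicates and share their libraries. Summed theca and stroma markers (58.9 CPM) and summed blood and immune markers (24.3 CPM) were also highest in MII5 of all oocytes. Only 3 of 8 theca and stroma markers and 2 of 8 blood and immune markers had a count in any MII oocyte. Cyp17a1, Col3a1, Dcn, Lum, Acta2, Lyz2, Cd14, Cd3e, Cd79a, Hba-a1 and Hbb-bs were at 0 in every MII oocyte. The part of length and of these markers in the members' ratios was not tested.

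**Figure D5:**
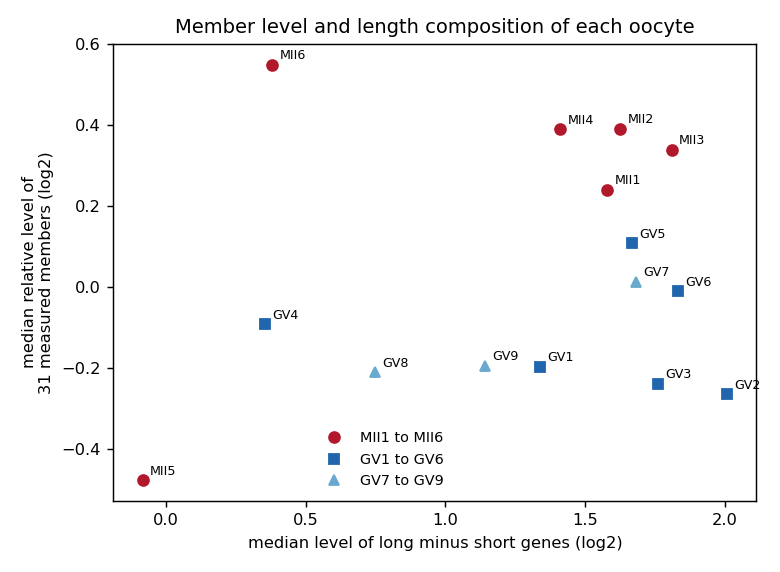
Median relative level of the 31 measured members in each oocyte against the level of long genes (at least 5000 exonic bases) minus short genes (under 2000), both on the log2 scale. MII5 lies lowest on both axes, at -0.48 and -0.08, while MII6 and GV4 are low on the length axis only.

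Cytoplasmic polyadenylation elements were looked for because stored oocyte messages that carry them, near their 3′ end, are known to gain long poly(A) tails during maturation when CPEB proteins bind them. The motifs searched were TTTTAT and TTTTAAT, on the transcript strand, in the last 100 bases of the principal transcript of GENCODE M21 (build GRCm38). They were present in 5 of 30 measured members whose 3′ untranslated region has at least 100 bases, or 16.7%, and in 1712 of 8340 measured genes, or 20.5%. The 5 are shown as 30 bases around the motif, 5′ to 3′, with the motif in capitals, since they include Fance, one of the 4 genes at least 2-fold higher in MII, and lack the other 3.
Brca2: ctacaactatcaTTTTATatacaaaataaa
Bard1: gtaatTTTTATtttttcctaatggatttaa
Trp53: ttttttacccctTTTTATatatcaatttcc
Fance: attttgtaacagTTTTAATaaaaagaagac
Fancm: ctcaattctgaaTTTTATcagctggtgggc
The motif began 39 bases from the end in Brca2, 95 in Bard1, 47 in Trp53, 28 in Fance and 67 in Fancm. In Fance it overlaps the polyadenylation signal AATAAA, which began 24 bases from the end, so the 2 share letters. No such signal was found in Bard1 and Fancm within the 40 bases searched for it. The median ratio was 0.06 for the members with a motif and 0.02 for the 25 without, against -0.06 and 0.01 over all genes. A match describes letters in the annotated end, and which ends these oocytes used is not known from counts per gene.

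Other genes of the same pathways lay on both sides of the median gene. Over 7 lists that hold 127 genes without any member, 86 genes were measured, with 12 at least 2-fold higher in MII (14.0%, against 11.5% of all measured genes), 9 at least 2-fold lower (10.5%, against 12.5%) and a median ratio of -0.07. In all 86 the MII range met the GV range, where 1.66% of all measured genes were higher and 0.728% lower in MII without overlap. The single lists below are small, and their counts stand against the same 11.5% higher and 12.5% lower.

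Among 19 other recombination and resection genes, 3 were higher and 2 lower. Rmi2, a subunit of the complex that dissolves recombination intermediates, was highest at 2.27, with 8.64, 25.5 and 113 CPM in MII oocytes and 0.235, 7.63 and 21.04 CPM in GV oocytes. Mre11a, the nuclease of the MRN complex, was lowest at -1.40, with 0, 2.55 and 11.0 CPM in MII oocytes and 4.68, 11.0 and 24.9 CPM in GV oocytes. This remaining subunit of MRN thus stood lower than Rad50 and Nbn, although from 24 counts in MII.

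In the other Fanconi and crosslink genes, 5 of 15 were higher (33.3%) and 1 was lower (6.67%), at a median ratio of -0.12. The 5 were Cenpx, Ube2t, Ercc4, Faap24 and Usp1. Cenpx, which binds DNA together with the FANCM complex, was highest at 2.01, with 171, 322 and 1224 CPM in MII oocytes and 25.5, 86.4 and 383 CPM in GV oocytes. Ube2t, the ubiquitin-conjugating enzyme of the core complex, was at 1.54 with a spread of 1.65. Usp1, which removes the ubiquitin from FANCD2, was at 1.05 with a spread of 0.91. Rfwd3, a ubiquitin ligase acting on RPA, was lowest at -1.75, with 3.84, 10.7 and 21.1 CPM in MII oocytes and 12.1, 34.8 and 118 CPM in GV oocytes.

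Of 21 other checkpoint and chromatin response genes, 2 were higher and 3 lower. The ubiquitin ligase gene Rnf8, which acts upstream of 53BP1 at broken chromatin, was at 1.20 with a spread of 0.68, with 111, 169 and 293 CPM in MII oocytes and 50.0, 90.5 and 175 CPM in GV oocytes. Abraxas1, a scaffold of the BRCA1-A complex and the highest of that list, was at 1.41. H2afx, the histone whose phosphorylation marks breaks, was lowest at -1.59, with 31.3, 61.1 and 249.7 CPM in MII oocytes and 91.0, 244 and 632 CPM in GV oocytes.

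Of 9 other mismatch repair genes, 1 was higher and 1 lower, from Pold1 at -1.505 to Pcna at 1.01. Of 12 other end-joining genes, 0 were called in either direction, from Tdp1 at -0.94 to Aplf at 0.77. Of 8 measured p53 and p63 target genes, 1 was higher and 1 lower, from the exonuclease gene Aen at -1.96 to Zmat3 at 1.57. Of 20 genes that form or process meiotic breaks, 4 were measured, 0 were higher and 1 was lower, from Psmc3ip at -1.21 to Hsf2bp at 0.38.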

How the data were processed

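The authors deposited, for each oocyte, whole-number counts by Ensembl gene ID. Reads were handled with cutadapt 4.0 and STAR 2.7.10a on GRCm39, as named in the submitters' processing notes. Not given in the sources used here are the counting tool, annotation, use of strand and treatment of shared reads, so reads of overlapping genes cannot be told apart. In GENCODE M21, 19 of the 38 members share exonic bases with another gene, 17 with one on the other strand, and 4, some of them among those 17, with one on the same strand (Atr, Atrip, Pms2 and Rad54b).

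Symbols and lengths come from GENCODE M21 (GRCm38), which named 28444 of 28785 gene IDs. Its coordinates served only to find overlapping exons, and none are printed. Counts were scaled to 1000000 per library after the unnamed feature was removed, summed over the oocytes of a stage with 0.5 added, and the log2 ratio was set to 0 at the median measured gene. Intervals are exact 95% Poisson intervals, or conditional binomial intervals for ratios, and cover counting error only. PCR reads are not independent molecules. Since no animal is named, no test across genes was run. The spread is the root of the summed squared SDs of both stages. In each role group, values over oocytes are given for the member highest per kb, those with the lowest and highest ratio and those past 2-fold. Other values were chosen after they were seen. In each pathway list, the genes with the lowest and highest ratio are named, and others after their values were seen. The members and lists were chosen with earlier results of these data known. In 51 pairs of oocytes of 1 stage the lowest chi-square per degree of freedom was 7.26, so no library was counted as a repeat of another. Analyses used Python 3.11.15, pandas 2.3.3, numpy 2.4.6, scipy 1.17.1 and R 4.3.3, with scaling factors of edgeR 4.0.16 and DESeq2 1.42.0 as alternatives. The calculation was tested on simulated counts. Some genes of the pathway lists are counted in the summaries but not reported singly here.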

Additional observations from a re-analysis of the deposited data

Results flagged for a closer look

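Within each stage, the highest or lowest oocyte was looked at for each measured member and for the median of the measured members. It stood apart from the rest by more than Dixon's 95% critical value in 6 of 64 groups of values. Chance alone flags about 1 in 20 of separate groups, but these groups share the same 15 libraries and are not separate. The values are relative levels, on the log2(CPM + 1) scale after subtracting the median over all measured genes of the same oocyte. Among MII oocytes, Rad54l was lowest in MII1 at -2.70 (3.73 CPM), while the others ran from -0.82 to 0.08. Fancg was at 0 CPM in MII6, a relative level of -4.83, while the others ran from -1.39 to -0.42. The median of the measured members was -0.48 in MII5 and 0.24 to 0.55 in the others. Among GV oocytes, Rad52 was lowest in GV6 at -3.45 (1.86 CPM), while the others ran from -0.96 to 0.01. Rad51c was lowest in GV4 at -3.49 (2.27 CPM), while the others ran from -1.80 to -0.39. Chek1 was highest in GV2 at 4.38 (582 CPM), while the others ran from 2.14 to 3.01.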

How the results depend on the processing

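No paired analysis was possible because the results come from no test and the replicate numbers only name single oocytes. The median member ratio of 0.06 lay between 0.02 and 0.13 when each oocyte was left out in turn, and it was -0.85 with all counts in the totals. The 4 members at least 2-fold higher in MII became 3 to 6, and the 0 at least 2-fold lower became 0 to 3, when an oocyte was left out. Over all genes, the shares in these sets were 9.65% to 13.2% higher and 11.5% to 14.1% lower. Leaving out an oocyte cannot make separate ranges overlap, so Trp53bp1 had to stay without overlap in every such set. No other member joined it there. The count higher and the count lower were 0 and 13 with all counts in the totals, 2 and 2 in CPM without the feature, 7 and 3 with no filter beyond 10 counts (18.5% and 28.1% of all genes), 1 and 3 with the median CPM over oocytes (11.7% and 12.6%), 7 and 3 against GV7 to GV9 alone (19.8% and 19.6%), and 7 and 5 at 1.5-fold (22.9% and 23.2%). The count higher was 0 at 4-fold, beside 1.81% of all genes. The count lower was 1 with the TMM factor (13.1% of all genes). It was 2 with the mean CPM over oocytes (13.2%), with thinned counts (13.8%), with a filter of 10 CPM (9.73%) and without GV1 and GV2 (11.5%). It was 3 with averaged relative levels (12.5%), an alternative chosen after seeing the data. Against GV7 to GV9 alone, also added later, 6 members did not overlap: Xrcc3, Trp53bp1 and Lig4 were higher in MII and Brca1, Fancd2 and Prkdc lower, where 9.20% and 9.85% of all genes do so. Of 1147 ratios under alternatives, over all 37 members with counts, 1129 moved by less than the spread between oocytes. Of those at least 2-fold from the median gene, 0 changed sign. Most alternatives reuse most of the counts, and the spread is that of single oocytes, so few larger moves could arise. Even so, Rad51d without MII2 and Rad52 and Fance without MII5 fell within 2-fold. Trp53bp1 did so in CPM without the feature, at 0.88, and with the median CPM over oocytes, at 0.90. The cause of these shifts was not tested. Depth limits the members under the filter, which have 2 to 22 counts in all MII oocytes.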
